A study of Komagataella phaffii with 13 samples.

Results

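The change from mixed to pure methanol feed was followed in *Pichia pastoris* (*Komagataella phaffii*) GS115, by setting each of 10 libraries of the methanol induction phase against the single library of the glycerol-methanol (GM) phase. All 13 libraries of the series come, as the study describes it, from 1 high-cell-density fed-batch culture of a Mut+ GS115 (His4) strain that carries *Aspergillus niger* PhyA phytase behind the AOX1 promoter and the *S. cerevisiae* mating factor alpha leader for secretion. The GM phase received glycerol together with methanol and was sampled at 2 h (GM_2), and the methanol induction phase received methanol alone and was sampled every 12 h from 12 h to 120 h (M_12 to M_120). The libraries of the yeast cell culture at 10 h (B_10) and of the glycerol feed at 3 h (G_3) preceded both and appear only as levels beside them. The strain entry in the labels counts upward through the methanol samples and the extraction text names retinas; every sample is treated here as the GS115 yeast that the study describes.

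A gene was called when its log2(FPKM + 1) differed from GM_2 by at least 1, a fold of 2, with 1 sign throughout all 10 methanol libraries. FPKM counts sequenced fragments per kilobase of transcript, divided by the amount sequenced in that library. Of 5439 identifiers, 5100 had a mean FPKM of at least 1, and 428 of these were called: 224 were higher in methanol induction (4.39% of the genes kept) and 204 were lower (4%). GM_2 is 1 library, and 1 culture gave all methanol libraries in series, so the SD given below describes those 10 libraries and not separate fermentations. An exact permutation test of 1 library against 10 cannot give a two-sided p below 0.0909, and none is given. Feed, hour and cell density changed together and cannot be told apart here, nor can fewer cells of a kind and less RNA per cell.

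In methylotrophic yeasts methanol is oxidised inside peroxisomes by alcohol oxidase, which yields formaldehyde and hydrogen peroxide. Formaldehyde is either oxidised to carbon dioxide through glutathione-bound intermediates and formate (dissimilation), or condensed with xylulose 5-phosphate by dihydroxyacetone synthase and carried through sugar phosphate rearrangements into biomass (assimilation). Glycerol represses alcohol oxidase, and peroxisomes multiply on methanol. A mixed feed therefore offers the cell a repressing and an inducing carbon source at once. The comparison asks which transcripts differed between that phase and the later methanol phase, in which hour and cell density differed as well.

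All 7 listed genes of assimilation and 4 of the 5 listed genes of oxidation and dissimilation were higher in methanol induction, and none was lower. The shares among all genes kept were 4.39% higher and 4% lower. The median differences of these lists were 4.02 and 1.63 on the log2 scale, beside −0.00071 for all genes kept. Lists of genes were taken from the tables of the study, which drew them from these libraries, so their counts are no independent evidence of a direction.

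AOX1 (PAS_chr4_0821), the alcohol oxidase that starts methanol use, stood at 928 FPKM in GM_2 and between 18912 and 33180 FPKM in the methanol libraries, with a median of 23727. Every methanol library lay above GM_2, as the rule requires of a gene called higher, the lowest being M_60 and the highest M_120. The difference was 4.67 ± 0.25 on the log2 scale (median ± SD, n = 10), or 25.6-fold by the median level. Its level before any methanol was given was 11.3 FPKM in B_10 and 38.2 FPKM in G_3, so that GM_2 already lay above the glycerol libraries and the methanol libraries lay above GM_2.

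FDH (PAS_chr3_0932), the formate dehydrogenase of the last step of dissimilation, was the 1 gene of the 5 that was not called, although every methanol library lay above GM_2. It already held 13046 FPKM in GM_2, against 45.5 FPKM in B_10 and 134 FPKM in G_3, and ranged from 15396 to 28257 FPKM in methanol induction. Its difference was at least 1 in only 1 of the 10 libraries, M_120. In GM_2 the FPKM of FDH was far above that of AOX1, whereas the medians of FDH and AOX1 in methanol were 20096 and 23727 FPKM.

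Between these extremes lay the middle of the dissimilation pathway and catalase. FLD, the dehydrogenase that acts on glutathione-bound formaldehyde, went from 2532 FPKM to a median of 7166 FPKM (range 5748 to 8455). FGH, the S-formylglutathione hydrolase of the next step, went from 554 to 2994 FPKM (range 2824 to 3861), a difference of 2.43 ± 0.13. CAT, the peroxisomal catalase that breaks down hydrogen peroxide, went from 2417 to 7469 FPKM (range 6548 to 8209), a difference of 1.63 ± 0.10. For these called genes, too, the methanol libraries did not overlap GM_2, which the rule itself requires. The share of all genes kept without such an overlap was not counted, and FDH, which was not called, had none either.

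**Figure D1:**
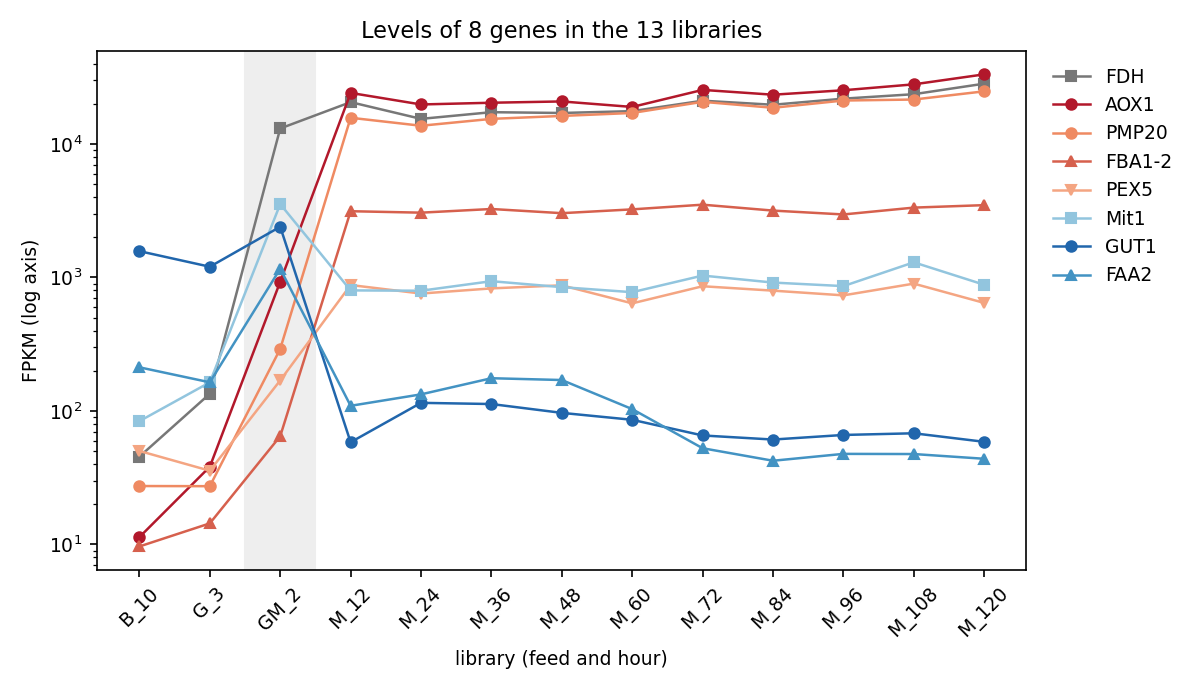
FPKM of 8 genes (vertical log axis) in the 13 libraries (horizontal axis, in the order of sampling), each point being 1 library and the grey band marking GM_2. FDH was near its methanol level in GM_2 at 13046 FPKM, AOX1, PMP20, FBA1-2 and PEX5 lay above GM_2 in every methanol library, and GUT1, FAA2 and Mit1 were higher in GM_2 than in every methanol library. Apart from FDH the genes shown were called, and the rule requires this separation.

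The assimilation list had the larger median difference, with genes from 1.55 (DAK) to 5.61 (FBA1-2). FBA1-2 (PAS_chr1-1_0319), the fructose bisphosphate aldolase isoform that the study assigns to peroxisomes, held 64.7 FPKM in GM_2 and 2962 to 3505 FPKM in methanol induction (median 3199). Its difference of 5.61 ± 0.08 corresponds to 49.5-fold. TAL1-2 (PAS_chr2-2_0338), a transaldolase, went from 41.3 FPKM to a median of 1236 FPKM (range 1021 to 1430). RKI1-2 (PAS_chr4_0212), a ribose 5-phosphate isomerase, went from 71.5 to 1176 FPKM (range 1001 to 1388). In G_3, before methanol was given, FBA1-2 stood at 14.4 FPKM, TAL1-2 at 12.2 FPKM and RKI1-2 at 25.2 FPKM, so that each was already above the glycerol feed in GM_2.

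DAS1 (PAS_chr3_0832) and DAS2 (PAS_chr3_0834) encode the dihydroxyacetone synthases that fix formaldehyde. In GM_2 their levels were unequal, with 374 FPKM for DAS1 and 1283 FPKM for DAS2. In methanol induction DAS1 ranged from 5671 to 7285 FPKM and DAS2 from 7825 to 9585 FPKM, so that the levels per length came close together. The difference from GM_2 was 4.10 ± 0.13 for DAS1 and 2.69 ± 0.11 for DAS2, and the ranges of the 2 genes over the 10 libraries did not overlap. Both transketolase-like genes are similar in sequence, and how reads that fit both were counted is not given in the sources used here. DAK, the dihydroxyacetone kinase, differed by 1.55 ± 0.11, from 845 FPKM to a median of 2477 FPKM. FBPI, the fructose bisphosphatase, differed by 1.59 ± 0.30, from 492 to 1478 FPKM, and had the widest spread of the assimilation list, from 1042 to 1890 FPKM.

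The isoforms of the same enzymes outside the methanol pathway did not all move this way. TK (PAS_chr1-4_0150), the transketolase of the pentose phosphate pathway, was lower, with 411 FPKM in GM_2 and 107 to 149 FPKM in methanol (difference −1.61 ± 0.16). TAL1-1 had a difference of −0.74 ± 0.10 (from 1284 to 769 FPKM), and FBA1-1 one of −0.17 ± 0.14 (from 1979 to 1758 FPKM); neither was called. RKI1-1 was higher together with RKI1-2, by 1.30 ± 0.10, from 117 to 289 FPKM. By level, TAL1-1 exceeded TAL1-2 in GM_2 (1284 against 41.3 FPKM) and FBA1-1 exceeded FBA1-2 (1979 against 64.7 FPKM). RKI1-1 exceeded RKI1-2 there by less (117 against 71.5 FPKM). In pure methanol all of these orders turned for the median levels, to 769 against 1236, 1758 against 3199 and 289 against 1176 FPKM.

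Glycerol use went the other way. GUT1 (PAS_chr4_0783), a glycerol kinase acting in the first step of glycerol use, had the largest decrease of all genes kept. It stood at 1572 FPKM in B_10, 1202 FPKM in G_3 and 2395 FPKM in GM_2, and at 58.3 to 115 FPKM in methanol (median 67.0). The level in GM_2 was 35.7 times the methanol median. The lowest methanol value came from M_12, the first library after the change. ADH (PAS_chr1-1_0357), an NADPH-dependent alcohol dehydrogenase, was lower at a far smaller level, with 34.4 FPKM in GM_2 and 4.72 to 12.6 FPKM in methanol.

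The gene next to GUT1 in the reference gene order, PAS_chr4_0784, had the second largest decrease. Its FPKM was 1947 in GM_2 and between 59.8 and 125.6 in methanol, a median difference of −4.60. No product is annotated for it in the sources used here.

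None of the 8 listed genes of glycolysis was called in either direction, beside 4.39% higher and 4% lower among all genes kept. Their median difference was −0.17. The highest was TPM, a phosphoglycerate mutase, at 0.71 ± 0.37, and the lowest was GPI, the phosphoglucose isomerase, at −0.66 ± 0.19. GPD, the glyceraldehyde 3-phosphate dehydrogenase, had 5615 FPKM in GM_2 and a median of 3778 FPKM in methanol (difference −0.57 ± 0.18), and was still the most abundant transcript of the list.

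Pyruvate dehydrogenase and the tricarboxylic acid cycle had 3 of 11 listed genes lower and none higher, beside 4% and 4.39% of all genes kept. The list's median difference was −0.98. SCS2 and SCS1, the alpha and beta subunits of succinyl-CoA ligase, went from 862 to a median of 205 FPKM and from 821 to 301 FPKM. The differences were −2.07 ± 0.17 and −1.45 ± 0.21. The E1 beta subunit of pyruvate dehydrogenase (PAS_chr1-4_0593) was the other gene called, at −1.56 ± 0.29, from 716 to 242 FPKM. The E1 alpha subunit (PAS_chr2-2_0294) had a difference of −0.90 ± 0.17 and the E2 subunit PDE2 one of −0.88 ± 0.06, both short of the rule. IDH, the NADP-specific mitochondrial isocitrate dehydrogenase, was the only listed gene of the cycle with a positive median, at 0.69 ± 0.33, from 163 to 263 FPKM, and it was not called.

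**Figure D2:**
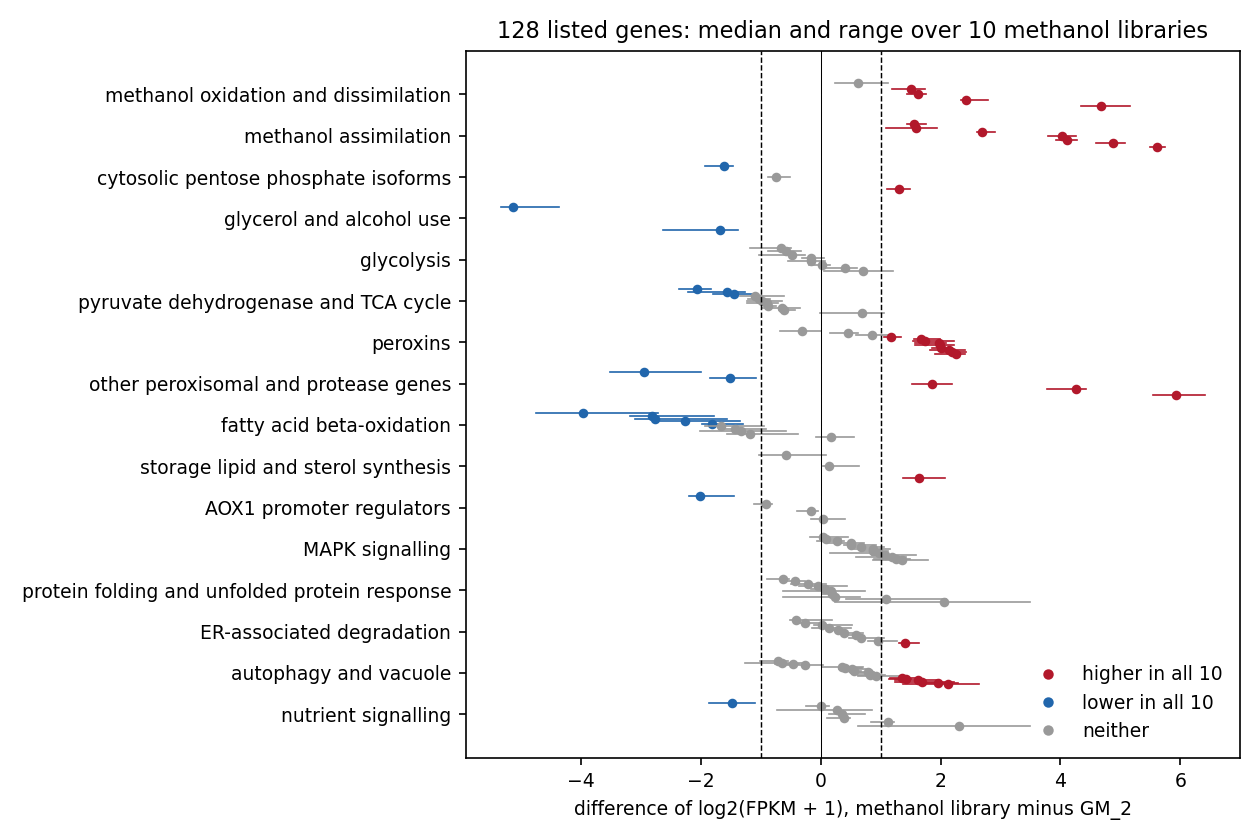
Difference of log2(FPKM + 1) between methanol libraries and GM_2 (horizontal axis) for the 128 listed genes in 16 lists (vertical axis); points are medians and lines the range over 10 methanol libraries, red for called higher, blue for called lower, grey for neither, with dashed lines at the threshold of 1. Methanol assimilation lies wholly to the right, beta-oxidation mostly to the left, and all 13 genes of MAPK signalling stay grey.

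Peroxins build the peroxisome and import its proteins. Of 12 listed peroxins, 9 were higher and none was lower, beside 4.39% and 4% of all genes kept, and the list's median difference was 1.86. PEX5, the receptor for the C-terminal import signal, had the largest difference of the list, from 169 FPKM in GM_2 to 639 to 898 FPKM in methanol (2.25 ± 0.18). PEX7, the receptor for the N-terminal import signal, had the smallest, at −0.31 ± 0.21, with 55.0 FPKM in GM_2 and 34.1 to 55.3 FPKM in methanol, an overlapping range. The docking peroxins PEX14 and PEX13 differed by 2.18 ± 0.13 and 2.13 ± 0.18.

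PEX6, which acts in recycling of the import receptor, went from 37.9 to a median of 156 FPKM (2.01 ± 0.11). PEX11, a membrane protein linked to peroxisome proliferation, was the most abundant peroxin, at 851 FPKM in GM_2 and 2544 to 3990 FPKM in methanol. PEX19, which acts in the biogenesis of the membrane, had a difference of 0.46 ± 0.13 and was not called. The summed FPKM of the 12 peroxins made up 0.192% of all FPKM in GM_2 and 0.577 to 0.771% in methanol.

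The largest increase of all genes kept was that of PMP20 (PAS_chr1-4_0547), a peroxisomal peroxiredoxin that removes peroxides. It stood at 27.4 FPKM in B_10, 27.3 FPKM in G_3 and 291 FPKM in GM_2, and at 13675 to 24761 FPKM in methanol (median 17846). This is 61.2-fold by the median level, a difference of 5.93 ± 0.27. PMP34 (PAS_chr3_0099), which the study treats as a peroxisomal nucleotide carrier, went from 152 to a median of 2927 FPKM (4.26 ± 0.20). PIM1-2, an ATP-dependent Lon protease, went from 71.8 to 262 FPKM (1.85 ± 0.18).

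Not all peroxisomal genes were higher. PXMP4, a putative peroxisomal membrane protein, was lower, with 129 FPKM in GM_2 and 35.2 to 60.3 FPKM in methanol, although it no longer passed in all 10 libraries once they were rescaled without their 20 largest genes. PAS_chr1-1_0108, an unannotated gene that the study lists with a predicted peroxisomal signal, was lower at 2713 FPKM against a median of 352 FPKM (range 237 to 680.0).

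Fatty acid beta-oxidation, which also runs in the yeast peroxisome, held the largest number of lower genes of the 16 lists. By share it came after glycerol and alcohol use, where 2 of 2 listed genes were lower. Of 10 listed genes 5 were lower and none was higher, beside 4% and 4.39% of all genes kept, and the list's median difference was −1.74. FAA2 (PAS_chr4_0352), a long-chain acyl-CoA synthetase that activates fatty acids, held 1161 FPKM in GM_2 and 42.3 to 176 FPKM in methanol, a median difference of −3.96 ± 0.84. Before methanol it was 212 FPKM in B_10 and 164 FPKM in G_3, so that GM_2 was the highest of the 13 libraries. FAA1 (PAS_chr2-1_0785), another long-chain acyl-CoA synthetase, was not called, with 1181 FPKM in GM_2 and 1124 to 1739 FPKM in methanol.

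The enzymes of the beta-oxidation spiral had the same profile of levels. POX1, the acyl-CoA oxidase, went from 1307 FPKM to a median of 191 FPKM (−2.77 ± 0.60). FOX2, the multifunctional enzyme of the next steps, went from 1216 to 255 FPKM (−2.26 ± 0.47). POT1, the thiolase of the last step, went from 2643 to 379 FPKM (−2.82 ± 0.52). In B_10 and G_3 these genes stood at 223 and 182 FPKM (POX1), 275 and 164 FPKM (FOX2) and 369 and 283 FPKM (POT1). GM_2 thus held the highest level of each over the 13 libraries, and the methanol median of each lay within 2-fold of the levels in B_10 and G_3.

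SPS19, a peroxisomal dienoyl-CoA reductase for unsaturated fatty acids, was lower by a smaller difference (−1.81 ± 0.25). Its methanol range of 338 to 542 FPKM stayed above 97.8 FPKM in B_10 and 117 FPKM in G_3. The subunits of the peroxisomal fatty acyl transporter, PXA1 and PXA2, had median differences of −1.19 ± 0.42 and −1.66 ± 0.35 and passed the threshold in 7 and 8 of the 10 libraries. PXA2 missed the rule by the smallest margin of the listed genes on the lower side, with a smallest difference of −0.95.

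Storage lipid and sterol synthesis was represented by 3 genes. ERG20, the farnesyl pyrophosphate synthetase of sterol synthesis, was higher, from 80.0 to a median of 250.1 FPKM (1.63 ± 0.23), and its B_10 and G_3 levels of 213 and 192 FPKM were close to the lower end of the methanol range. The acyltransferases LRO1 (−0.57 ± 0.32) and DGA1 (0.14 ± 0.17), which make triacylglycerol, were not called.

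Regulators of the AOX1 promoter did not follow AOX1. Of 4 listed regulators 1 was lower and none was higher, beside 4% and 4.39% of all genes kept. Mit1 (PAS_chr3_0836), an activator of the promoter, held 83.8 FPKM in B_10, 164 FPKM in G_3 and 3542 FPKM in GM_2, and 775 to 1297 FPKM in methanol (difference −2.02 ± 0.22). Its methanol levels thus lay between those of the glycerol feed and the GM phase. Mxr1, the zinc-finger activator of methanol genes, had 207 FPKM in GM_2 and 95.5 to 117 FPKM in methanol (−0.92 ± 0.09) and passed the threshold in 3 libraries. The activator Prm1 (−0.16 ± 0.09) and the 14-3-3 protein C4qzn3 (0.03 ± 0.15) lay within 1 of GM_2 in all 10 libraries.

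Mit1 lies directly beside DAS2 in the reference gene order, so that neighbours moved in opposite directions. DAS1 and DAS2 are separated by a single gene, PAS_chr3_0833, with 77.5 FPKM in GM_2 and a median of 95.5 FPKM in methanol. On the other side of DAS1 lie the lower gene PAS_chr3_1225 and SCS2. RKI1-2 and RKI1-1 are neighbours that were both higher.

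Gene order was then set beside the calls for all genes kept. Of 223 higher genes with a place in the reference gene order, 68 (30.5%) had a neighbour that was also higher, and 8.49% of all genes kept had such a neighbour. Of 201 lower genes, 32 (15.9%) had a lower neighbour, beside 7.81% of all genes kept. A lower neighbour was found for 14 of the higher genes (6.28%). Overlapping transcripts of neighbours were not examined, and whether counting used the strand is not given in the sources used here.

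Autophagy breaks down cell components in the vacuole and also removes peroxisomes. Of 18 listed genes of autophagy and the vacuole, 6 were higher and none was lower, beside 4.39% and 4% of all genes kept. The list's median difference was 0.80. All 6 higher genes had a higher level in G_3 than in GM_2, and every methanol library lay above G_3 as well. ATG1, the kinase that starts autophagosome formation, went from 33.02 FPKM to 87.2 to 212 FPKM (2.13 ± 0.37), with 59.7 FPKM in G_3. ATG8, the ubiquitin-like protein of the autophagosome membrane, went from 226 to 536 to 1054 FPKM (1.70 ± 0.29), with 384 FPKM in G_3. The genes that process or attach it, ATG4 (1.35 ± 0.19) and ATG7 (1.63 ± 0.22), were higher as well.

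At the vacuole, ATG22, a membrane protein involved in amino acid efflux, went from 11.2 to a median of 46.4 FPKM (1.96 ± 0.18). In G_3 ATG22 stood at 34.6 FPKM. ATG15, the vacuolar lipase that breaks up autophagic bodies, went from 46.6 to 126 FPKM (1.42 ± 0.13). ATG11, the adapter for selective autophagy of peroxisomes, had 56.2 FPKM in GM_2 and 32.9 to 43.6 FPKM in methanol (−0.46 ± 0.12), below GM_2 in every library but short of the rule. Its levels of 19.9 FPKM in B_10 and 19.5 FPKM in G_3 were below every methanol library. PRB1, the vacuolar proteinase B, reached a median of 1268 FPKM from 726 FPKM (0.80 ± 0.16) and was not called. The lowest of the list were LCB1/2 of sphingolipid synthesis (−0.72 ± 0.16) and the tethering protein Vps39 (−0.64 ± 0.25), neither of them called.

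None of the 13 listed genes of mitogen-activated protein kinase (MAPK) signalling was called, beside 4.39% higher and 4% lower among all genes kept. The median of the list was 0.86, beside −0.00071 for all genes kept, and all 13 medians were above 0. Slt2, the kinase of the cell wall integrity pathway in *S. cerevisiae*, had 37.7 FPKM in GM_2 and 70.1 to 133 FPKM in methanol (1.35 ± 0.27) and passed in 9 of 10 libraries. Tec1, a transcription factor of the filamentation pathway in *S. cerevisiae*, passed in 8 (1.25 ± 0.20). The phosphorelay protein Ypd1 (1.08 ± 0.24) and the pheromone receptor Ste3 (1.19 ± 0.30) passed in 7 each. Hog1, the osmoregulatory kinase, had a median difference of 0.08 ± 0.11. Slt2, Tec1, Ypd1 and Ste3 were thus above GM_2 in every methanol library, but by less than 1 in at least 1 of them. The difference of Ste3 was 0.59 in M_12 and 1.42 in M_120. The kinases Hog1 and Bck1 and the Wsc sensor gene PAS_chr3_0673 had methanol libraries on both sides of GM_2.

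Folding in the endoplasmic reticulum and the unfolded protein response had no called gene of 10 listed. Among all genes kept 4.39% were higher and 4% lower. The median difference of the 10 genes was 0.12. HAC1, the transcription factor of the response, had 310.3 FPKM in GM_2 and 199.9 to 489 FPKM in methanol, on both sides of GM_2. BiP, the chaperone of the endoplasmic reticulum, had 603 FPKM in GM_2 and 391 to 1004 FPKM in methanol, also on both sides. Hsp70 (PAS_chr3_0230) varied most among the listed genes, from 1430 FPKM in M_12 to 13643 FPKM in M_120, against 1218 FPKM in GM_2 (2.06 ± 0.88), and passed in 9 libraries. Hsp90 passed in 6 (1.10 ± 0.47). Both chaperones had 4368 and 2549 FPKM in B_10.

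Of 10 listed genes of degradation at the endoplasmic reticulum, 1 was higher and none was lower, beside 4.39% and 4% of all genes kept. It was Png1, a glycanase that strips sugars from misfolded glycoproteins, with 19.98 FPKM in GM_2 and 50.6 to 64.6 FPKM in methanol (1.40 ± 0.11). Derlin, a candidate channel component, followed at 0.96 ± 0.16 and passed in 4 libraries.

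Among 7 listed genes of nutrient signalling 1 was lower and none was higher, beside 4% and 4.39% of all genes kept. Sch9, a protein kinase of nutrient signalling, had 187 FPKM in GM_2 and 50.5 to 86.4 FPKM in methanol (−1.49 ± 0.23), and it no longer passed in all 10 libraries after the rescaling named above. In B_10 and G_3 Sch9 stood at 32.3 and 36.1 FPKM, below every methanol library. PCL5, a cyclin that restrains Gcn4 in *S. cerevisiae*, had 206 FPKM in GM_2, 318 FPKM in M_12 and up to 2332 FPKM in M_60 (2.31 ± 0.79), and failed the rule through M_12 alone. In B_10 and G_3 PCL5 stood at 662 and 884 FPKM, above GM_2, M_12 and M_24, and its methanol median was 1026 FPKM. Gcn4, the activator of amino acid synthesis, had a median difference of 0.27 ± 0.46. PKA, the catalytic subunit of the cAMP-dependent kinase, passed in 7 libraries (1.12 ± 0.12).

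**Figure D3:**
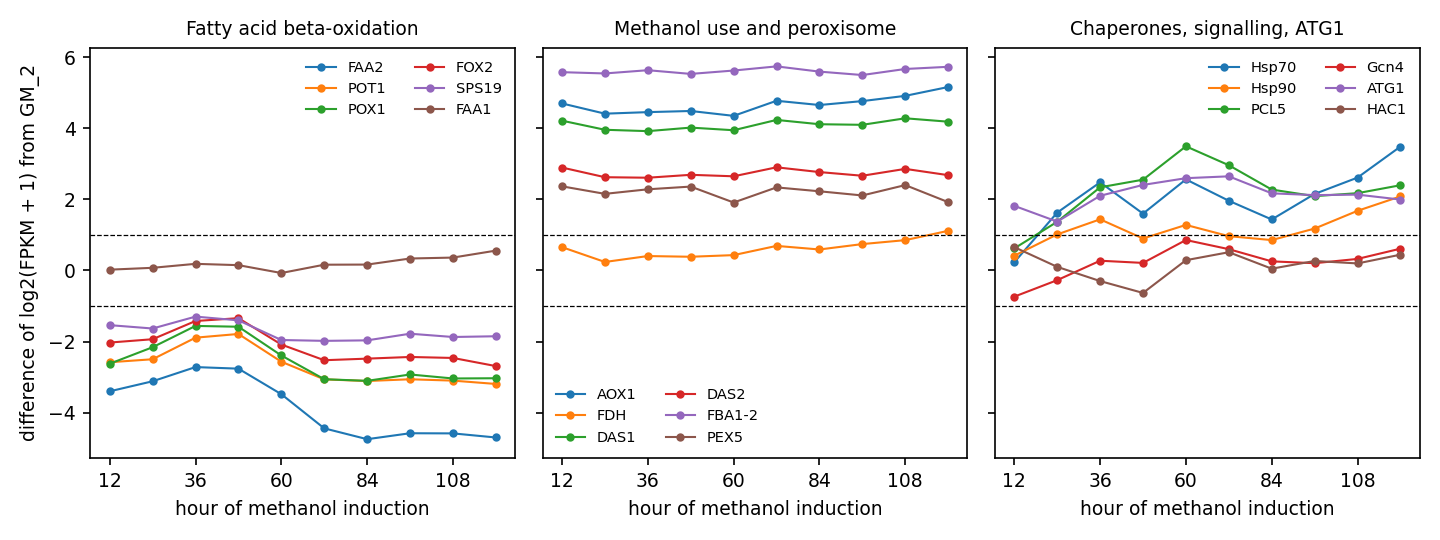
Difference of log2(FPKM + 1) from GM_2 (vertical axis) at each hour of methanol induction (horizontal axis) for 6 genes in each of 3 panels; each point is 1 library and the dashed lines mark the threshold of 1. FAA2, POT1, POX1 and FOX2 are nearest to GM_2 at 36 and 48 h and farthest from 72 h on, FBA1-2 stays between 5.50 and 5.74, and Hsp70 runs from 0.23 to 3.48.

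Of the 428 called genes 47 are in the lists and 381 are not. Among the 10 largest increases 5 belong to listed genes (PMP20, FBA1-2, TAL1-2, AOX1 and PMP34), and among the 10 largest decreases 2 do (GUT1 and FAA2). The largest unlisted increases were those of PAS_chr3_1071 (102.9 FPKM in GM_2, 2662 to 5996 FPKM in methanol, median difference 4.87) and PAS_chr4_0152 (91.3 FPKM in GM_2, 1027 to 4100 FPKM in methanol, median difference 4.79). Beside PAS_chr4_0784, the largest unlisted decrease was that of PAS_chr1-4_0553, with 284.5 FPKM in GM_2 and 8.02 to 18.1 FPKM in methanol. Numbered transcripts that lie outside the annotation contributed 1 higher and 3 lower genes, of 38 kept, beside 4.39% and 4% of all genes kept.

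Among the called genes, the 5 largest gains by amount of FPKM rather than by ratio were those of AOX1, PMP20, PAS_chr4_0065, DAS2 and PAS_chr4_0407. PAS_chr4_0065 had 6532 FPKM in B_10, 6880 FPKM in G_3, 1404 FPKM in GM_2 and 7628 to 24457 FPKM in methanol, so its GM_2 level was the lowest of the 13 libraries. PAS_chr4_0407 likewise had its lowest level in GM_2, at 2645 FPKM. The largest losses among the called genes were those of PAS_chr4_0627, from 7263 FPKM in GM_2 to a median of 2000 FPKM, and PAS_chr2-1_0874, from 5661 FPKM to a median of 445.4 FPKM.

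The 224 higher genes together took 3.01% of all FPKM in GM_2 and 16.2 to 21.3% in methanol. Without the 5 genes of largest gain these shares were 2.34% and 9.95 to 12.7%. The 204 lower genes took 11.8% in GM_2 and 2.31 to 3.12% in methanol, and 4.57% in B_10 and 5.35% in G_3. The share of the lower genes was therefore higher in GM_2 than in any of the other 12 libraries. Since the rule selects on GM_2, these shares describe the called genes and test nothing.

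**Figure D4:**
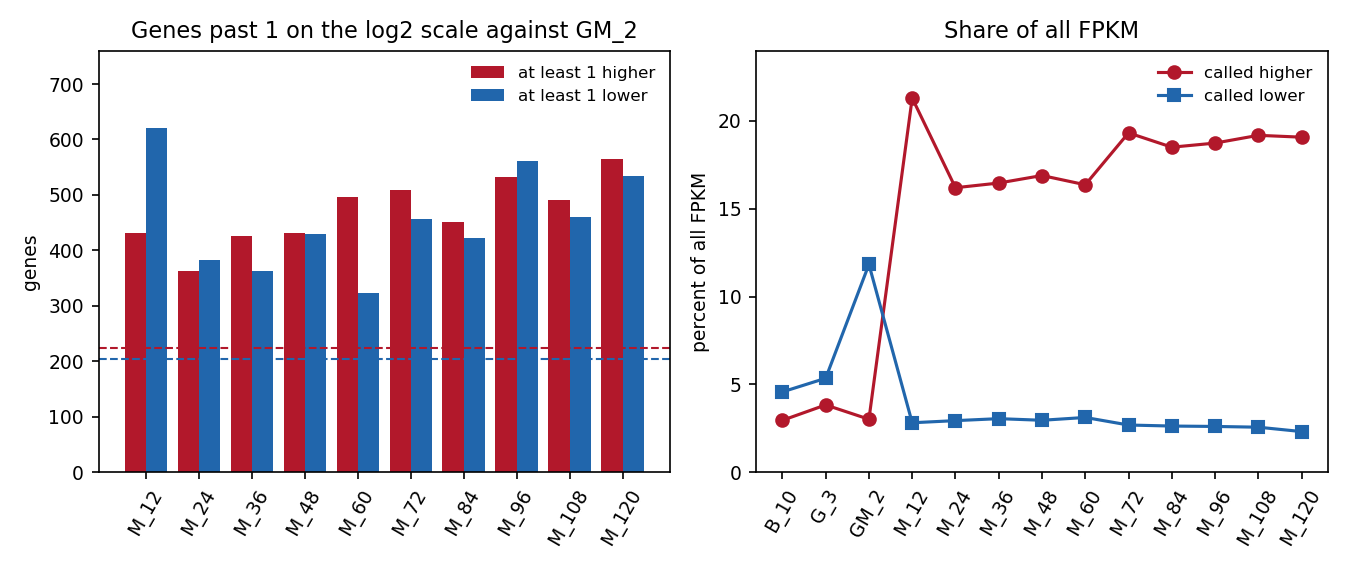
Left, number of genes at least 1 higher (red) or lower (blue) than GM_2 on the log2 scale in each methanol library, with dashed lines at the 224 and 204 genes that pass in all 10. Right, percent of all FPKM taken by these 224 and 204 genes in each of the 13 libraries; the higher genes go from 3.01% in GM_2 to 21.3% in M_12, and the lower genes go from 11.8% to 2.81%.

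In single methanol libraries, 362 (M_24) to 564 (M_120) genes were at least 1 higher than GM_2 and 323 (M_60) to 620 (M_12) were at least 1 lower. In total 818 genes were higher in at least 1 library and 821 were lower, and 17 of these were higher in some and lower in others. Just 1 library short of the rule were 69 genes on the higher and 79 on the lower side. The median difference of the 224 genes ranged from 1.59 (M_24) to 1.89 (M_96), and that of the 204 genes from −1.95 (M_12) to −1.41 (M_60).

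The threshold cut through a continuous range of values. Just inside on the higher side were PAS_chr4_0971 and PAS_chr4_0040, whose smallest differences were 1.0007 and 1.0010, and just outside were PAS_chr1-4_0460 at 0.9992 and PAS_chr4_0450 at 0.993. On the lower side PAS_chr3_1068 and PAS_chr4_0716 were just inside at −1.0040 and −1.0045, and PAS_chr2-2_0111 and PAS_chr1-4_0057 just outside at −0.9995 and −0.9989.

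A separate question is whether levels moved on after the change of feed. A line over the hours was fitted in the 10 methanol libraries with limma, without GM_2, and its change from 12 to 120 h was tested with Benjamini-Hochberg adjustment over 5100 genes. At an adjusted p of 0.05, 249 genes were rising (4.88%) and 143 were falling (2.8%), but after rescaling without the 20 largest genes this split turned to 131 rising and 373 falling. The rescaling moved the median change of all genes from 0.0062 to −0.15. These counts also hung on single libraries, with 107 rising and 38 falling without M_120, 112 and 43 without M_24, 119 and 49 without M_96, and 152 and 73 without M_48. The number falling was 85 without M_36, 80 without M_72 and 255 without M_12. The p-values measure the spread of serial samples about a line.

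Of the 224 higher genes, 18 were rising (8.04%) and 3 were falling (1.34%) over the hours, a split that turned to 5 rising and 6 falling after rescaling. Of the 204 lower genes, 1 was rising and 12 were falling (5.88%), and after rescaling none was rising and 28 were falling. The number rising among the higher genes ranged from 4 without M_24 to 31 without M_12, and the number falling among the lower genes from 6 without M_120 to 28 without M_12.

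PMP20 was rising within methanol induction by 0.74 on the log2 scale (SE 0.12, limma adjusted p = 0.0058), from 15695 FPKM in M_12 to 24761 FPKM in M_120. FAA2 was falling (−2.08, SE 0.41, limma adjusted p = 0.015); its level was 109 FPKM in M_12, 176 FPKM in M_36 and 43.8 FPKM in M_120. The course of FAA2 was not a straight line, with its highest levels at 36 and 48 h. Both calls were kept under all 16 alternatives. The pyruvate dehydrogenase subunit PAS_chr1-4_0593 (−0.76, limma adjusted p = 0.015), SCS2 (−0.46, limma adjusted p = 0.021), SCS1 (−0.54, limma adjusted p = 0.031) and PAS_chr1-1_0108 (−1.22, limma adjusted p = 0.04) were falling too. Each of these 4 lost the call without M_120, with adjusted p-values of 0.074, 0.099, 0.13 and 0.10 in that order. For SCS2 this also happened without M_24, for SCS1 without M_24, M_36, M_48 or M_96, and for PAS_chr1-1_0108 without M_24, M_36, M_84, M_96 or M_108.

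AOX1 had a fitted change of 0.55 (SE 0.17) with a limma adjusted p of 0.07, and FDH one of 0.60 (SE 0.17) with 0.052; neither passed. POT1 (−1.09, limma adjusted p = 0.067) and FOX2 (−1.01, limma adjusted p = 0.059) did not pass either. Of listed genes not called against GM_2, Ste3 was rising (0.81, SE 0.13, limma adjusted p = 0.005), as were Ubc7 and TOR. LCB1/2, Ste12 and the Wsc gene PAS_chr3_0673 were falling. These trends are given for the full set of 10 libraries only. Among called genes without a name, PAS_chr1-3_0020 (1.32, limma adjusted p = 0.022) and PAS_chr3_0225 (1.25, limma adjusted p = 0.0082) had the largest rising changes, and PAS_chr2-1_0874 (−1.55, limma adjusted p = 0.022) the largest falling change after FAA2.

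Depth differed between libraries. Low FPKM values were whole multiples of 1 fragment within 0.01 for 86.4 to 96.1% of the values checked, which placed the fragments in annotated genes between 23452930 (M_96) and 42621774 (B_10), with 42219732 in GM_2. Between 319 and 328 identifiers were listed at 0 in each library.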

How the data were processed

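RNA of 13 samples of 1 fermentation was sequenced as paired-end reads. The authors deposited FPKM values made from reads aligned with Hisat2 2.0.5. Not given in the sources used here are the counting tool, its strand setting and the genome build. Of 5439 identifiers, 5040 matched the locus tags of the RefSeq table of assembly ASM2700v1, which was used for gene order only. That table holds no products or proteins, so the planned lists by product word and the protein features were not run. The values of 1 listed gene are not reported here. Names and roles come from the tables of the study and from general knowledge of yeast.

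Values were analysed as log2(FPKM + 1), with a pseudocount of 1, after genes with a mean below 1 FPKM (13 libraries) had been left out, which kept 5100. Each methanol library was compared with GM_2 by size alone, with no p-value. Trends over the 10 methanol libraries were fitted with limma 3.58.1 in R 4.3.3 (empirical Bayes trend, Benjamini-Hochberg adjustment). Fragments were recovered from the FPKM of low genes and used only to describe depth. Other work used Python 3.11.15, numpy 2.4.6, pandas 2.3.3 and matplotlib 3.10.9. The rule and the limma fit were also run on simulated data with independent noise in each library. The real differences all share the single GM_2 library, and the real libraries are serial. The simulation therefore cannot show how often an error in GM_2 alone gives a call.

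The members, the lists and the rules were chosen with earlier results of these data known. The text names genes of the lists, the 10 largest changes in each direction that carry a name, the 5 largest gains and losses of FPKM, the 3 largest trends in each direction among called genes and the 2 genes on each side of the threshold; genes without a name are given by identifier, at most 2 in each direction per category, and neighbours in gene order and the few others were chosen after their values were seen. Alternatives changed the pseudocount (0.1, 5), the filter (none, 10), the threshold (0.5, 1.5), the number of libraries required, the scaling (without the 20 largest genes), the limma prior and the methanol libraries used. The label of B_10 names a bench-scale batch, and B_10 entered no called difference or trend, but it counts in the mean of 13 libraries used as a filter and its levels are given beside others.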

Additional observations from a re-analysis of the deposited data

Results flagged for a closer look

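Examined were 130 series of 10 methanol values, namely the differences of the 128 listed genes and the per-library counts in both directions. In 10 of them 1 library lay far from the other 9 by Dixon's criterion, a share of 7.69%. The criterion is set to flag about 1 in 20 series of independent values. These values are serial and the series share the same libraries, so that rate does not apply here. In 7 of the 10 flagged series the library was M_12. For called genes these were FGH, at 2.80 in M_12 against 2.35 to 2.53 in the others, and ADH, at −2.63 in M_12 against −2.04 to −1.38. For genes not called, M_12 stood apart for PGK at −1.03 (others −0.59 to −0.26), GPI at −1.18 (others −0.84 to −0.50), Sec61 at −0.90 (others −0.70 to −0.52), Hrd3 at 0.53 (others −0.12 to 0.18) and the Hrd1 gene PAS_chr4_0156 at 0.18 (others −0.52 to −0.20). Another library stood apart for DGA1, at 0.63 in M_96 (others 0.042 to 0.31), C4qzn3, at 0.41 in M_120 (others −0.16 to 0.071), and ATG11, at −0.76 in M_60 (others −0.57 to −0.36).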

How the results depend on the processing

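Of 70 recomputed counts, 51 stayed within 1.5 times the value reported. A threshold of 0.5 gave 583 higher and 672 lower genes and one of 1.5 gave 93 and 57, against 224 and 204. Rescaling without the 20 largest genes gave 259 higher and 158 lower. A rule on the median of the 10 libraries gave 458 and 429. Leaving out 1 methanol library gave 224 to 260 higher and 205 to 244 lower genes. For the trend, leaving out 1 library gave 107 to 335 rising and 38 to 255 falling genes, and rescaling without the 20 largest genes gave 131 and 373, against 249 and 143. Of 384 recomputed medians of listed genes 371 moved by less than 1 SD of the methanol libraries, and none of the called ones changed sign. Of 192 recomputed trends of listed genes 41 lost the call and none changed sign. Why the values moved was not tested. No paired analysis was possible because GM_2 is 1 library and the methanol libraries carry no number that pairs them with it. A single GM_2 library leaves its own error unmeasured in every difference.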

Other observations

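The methanol libraries were not equally far from GM_2 for the called genes. M_12 held the largest difference for 71 of the 224 higher genes and for 91 of the 204 lower genes, and M_120 for 58 and 27. The smallest difference fell in M_24 for 65 and in M_60 for 58 of the higher genes, and in M_60 for 75 of the lower genes. These counts were not made over all genes kept, among which M_12 also had the most genes at least 1 lower (620). As a share of all FPKM, the listed genes of folding and the unfolded protein response had 0.405% in GM_2, 0.511% in M_12 and 1.70% in M_120. Without Hsp70 and Hsp90 the other 8 genes had 0.207%, 0.257% and 0.230% in these libraries, and the median difference of the list was 0.12. The listed genes of pyruvate dehydrogenase and the tricarboxylic acid cycle had 0.966% in GM_2, 0.550% in M_12 and 0.399% in M_120.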
